A study of Antheraea pernyi with 6 samples.

Results

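Genes for the transport and use of sugar and trehalose were examined in adult antennae of Antheraea pernyi (the Chinese oak silkmoth). A gene was taken as a member when its best protein hit contained, ignoring case, the word trehalose, trehalase, sugar transporter, glucose transporter, glucose dehydrogenase or sorbitol dehydrogenase, which gave 98 of the 16458 genes in the deposited table. They were 70 genes named as trehalose transporters, 1 trehalose-6-phosphate synthase, 4 trehalases, 17 sugar and glucose transporters, 3 glucose dehydrogenases and 3 sorbitol dehydrogenases. The study holds 3 libraries labelled male and 3 labelled female, each made from Trizol-extracted antennal RNA with a stranded mRNA kit. The labels give tissue and sex and no strain, age in days, treatment or count of animals, so it is not known whether libraries of a label came from separate moths. The p-values set the difference between labels against the spread among libraries of a label, and that spread may be technical only.

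Trehalose, a sugar made of a pair of joined glucose units, is the main blood sugar of many insects. It is made mostly in the fat body by trehalose-6-phosphate synthase, passes membranes through facilitated transporters of the Tret1 type, first described in an anhydrobiotic midge, and is split into glucose by trehalases, of which trehalase 1 is known as a soluble and trehalase 2 as a membrane-bound enzyme. Glucose itself crosses membranes through facilitated glucose transporters and SWEET proteins. Names here are best hits, 41 of the 98 to Manduca sexta and 6 to A. pernyi itself, and a name does not show which sugar a transporter carries.

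Values are FPKM, a read level per gene length and library depth. Library totals, worked back from the smallest FPKM steps, lay between 9392242 and 9606755 reads in the male-labelled set and between 10851262 and 11180175 in the female-labelled set. Pheromone-binding protein 1 (GWHGABGR012196), a soluble pheromone carrier that is male-biased in many moths, stood at 1273 ± 90.6 FPKM in the male-labelled set and 92516 ± 2089 in the female-labelled set (SD, n = 3 each), so exchanged labels and a sex difference cannot be told apart and every direction below is one between labels. The 98 genes of the antennal marker list, odorant-binding proteins and receptors among them, summed to between 46521 and 49322 FPKM in the male-labelled set and between 134430 and 139058 in the female-labelled set. Without pheromone-binding protein 1 the other 97 summed to between 45342 and 48041 FPKM in the male-labelled set and between 44291 and 44999 in the female-labelled set, and after rescaling, which turned their order, to between 41428 and 43304 in the male-labelled set and between 48319 and 48415 in the female-labelled set. Behind these sums single genes differed in both directions. Olfactory receptor 1 (GWHGABGR000138) had means of 0.18 FPKM in the male-labelled set and 1140 in the female-labelled set. Pheromone-binding protein 3 (GWHGABGR012195) had 1082 and 11729. General odorant-binding proteins 1 and 2 went the other way, at 10391 and 17546 in the male-labelled set and 5239 and 11568 in the female-labelled set. All log2 fold changes are male-labelled minus female-labelled on the log2(FPKM + 1) scale, which understates the change of low genes. A gene was called at a limma adjusted p of 0.05 over all genes with a mean of at least 0.5 FPKM. The median log2 fold change of all genes tested was 0.23 on the deposited scale and 0.02 after rescaling each library by the median of ratios, so changes are read against those medians and both scales are given where they differ. Of the 84 tested antennal markers without pheromone-binding protein 1, 38 were called higher (45.2%) and 19 lower (22.6%), where all genes gave 27.8% and 9.03%. After rescaling 26 were higher (31.0%) and 22 lower (26.2%), where all genes gave 14.3% and 17.7%.

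The summed level of the members turned with the scale. On the deposited scale it lay between 3139 and 3166 FPKM in the male-labelled set, against 2777 to 2851 FPKM in the female-labelled set, which was 0.235% to 0.237% of all FPKM against 0.205% to 0.213%. After rescaling it was lower in the male-labelled set, at 2825 to 2868, against 2999 to 3110 in the female-labelled set. Rescaled sums were computed after the deposited ones had been seen. A bulk measurement cannot tell more cells of a type from more RNA per cell. Of the 98 members, 67 were tested, 20 were called higher in the male-labelled set (29.9% of those tested) and 10 lower (14.9%). Among all genes tested the shares were 27.8% higher and 9.03% lower, or 36.9% in either direction. After median-of-ratios rescaling 14 members were higher (20.9%) and 15 lower (22.4%), where all genes gave 14.3% higher and 17.7% lower, or 32.0% in either direction. The members' share called higher is near that of all genes on the deposited scale and is no result about the members. Their median log2 fold change was 0.18 on the deposited scale and 0.00 after rescaling, again beside 0.23 and 0.02 for all genes. Calls held on both scales for 14 higher and 10 lower members. A further 6 higher members lost the call on rescaling, 5 uncalled members became lower, and 0 changed from a call one way to a call the other way.

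**Figure D1:**
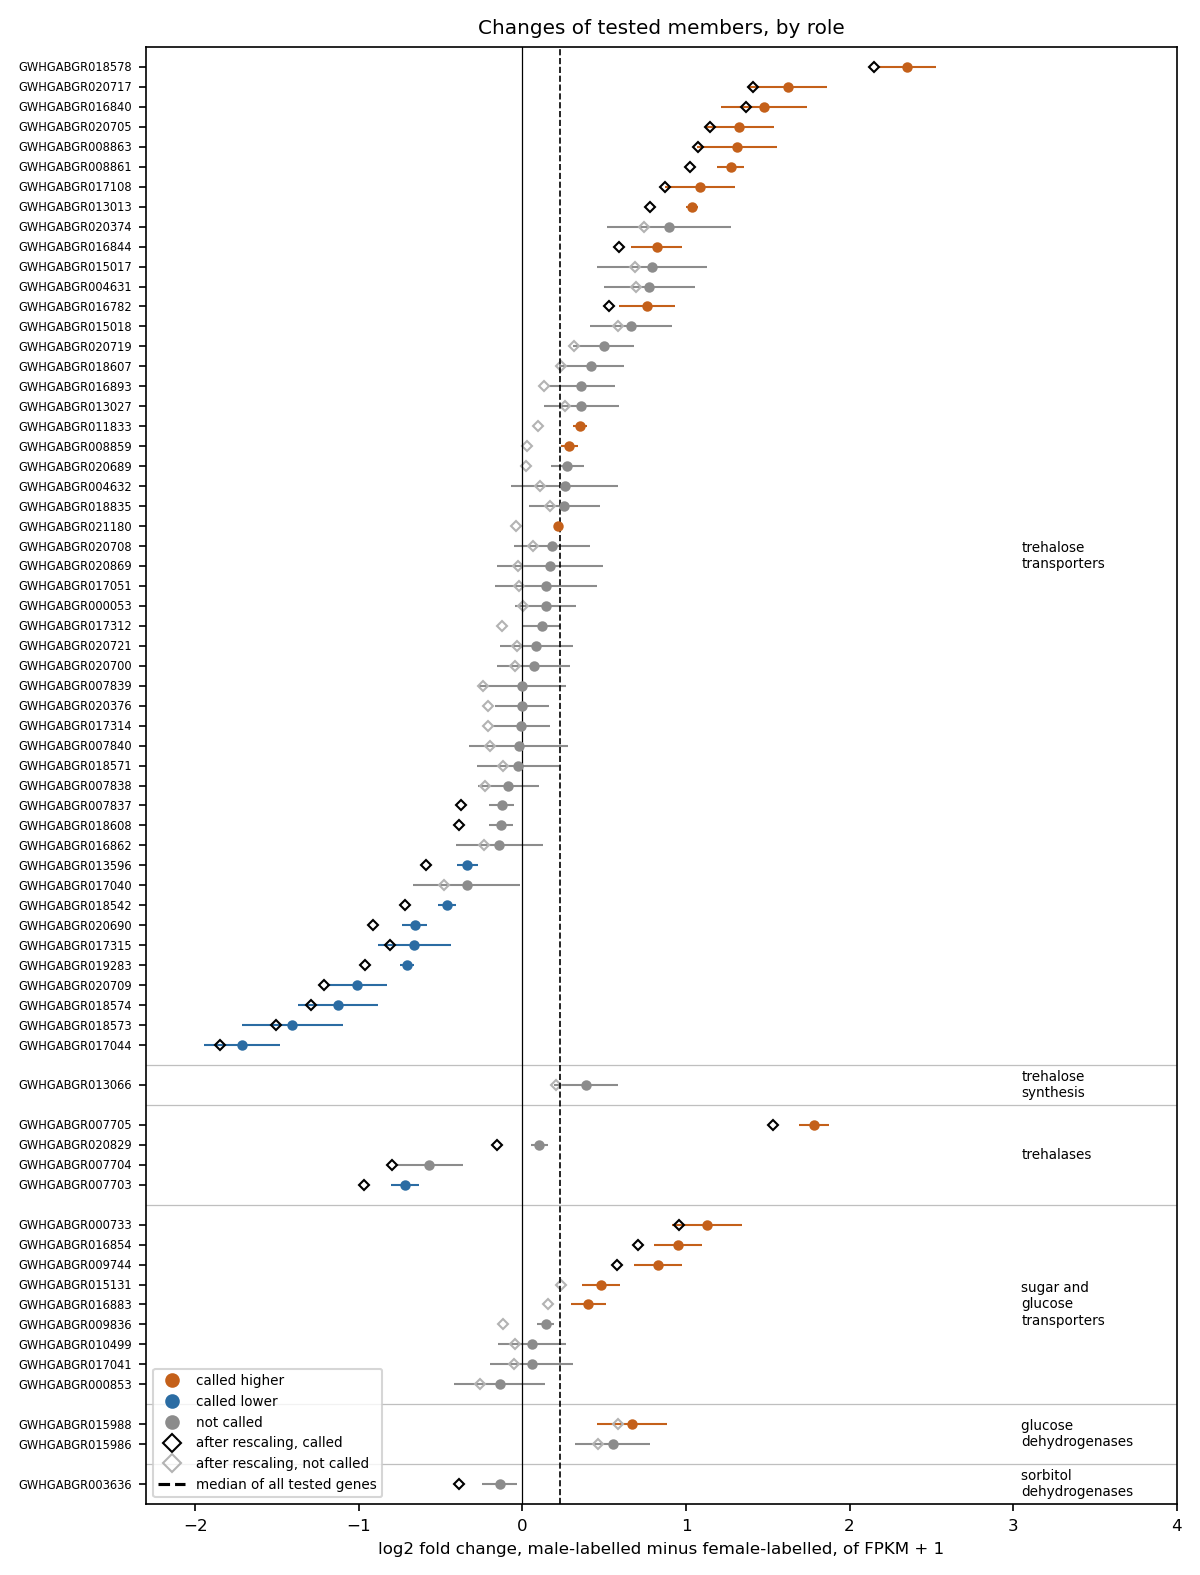
Log2 fold changes of the 67 tested members, male-labelled minus female-labelled, of FPKM + 1, grouped by role, with filled points and standard error lines for the deposited scale, coloured by limma call, diamonds for values after rescaling and a dashed line at the median of all tested genes. Trehalose transporters lie on both sides of 0, between -1.71 and 2.35 on the deposited scale.

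The trehalose transporters were the largest group, with calls in both directions. Of 70 genes, 50 were tested, 13 were higher (26.0%) and 9 lower (18.0%) in the male-labelled set, beside 27.8% and 9.03% of all genes, and after rescaling 10 were higher (20.0%) and 11 lower (22.0%), beside 14.3% and 17.7% of all genes. Their summed level lay between 2452 and 2505 FPKM in the male-labelled set and between 2197 and 2278 FPKM in the female-labelled set, and after rescaling between 2203 and 2258 in the male-labelled set and between 2373 and 2485 in the female-labelled set. The most abundant member of all 98 was a Tret1-like gene, GWHGABGR021180, which ranked 291st of all genes. It stood at 783, 797 and 782 FPKM in the male-labelled set and at 671, 671 and 686 FPKM in the female-labelled set. The sets did not overlap, with means of 787 ± 8.55 and 676 ± 9.07 FPKM (SD, n = 3 each) and a log2 fold change of 0.22 (SE 0.03, limma adjusted p = 0.000504). This is close to the median of all genes. Its rescaled value was -0.038 (limma adjusted p = 0.409), and its call was also lost without the mean-variance trend (limma adjusted p = 0.0558).

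A next set of 6 genes carried the largest increases among the trehalose transporters that reached 5 FPKM in the higher set, and each kept its call after rescaling. GWHGABGR013013, the most abundant of them, stood at 349.7, 344 and 348 FPKM in the male-labelled set and at 166, 169 and 171 FPKM in the female-labelled set. The sets were far apart, at 347 ± 3.02 and 169 ± 2.23 FPKM (SD, n = 3 each), a log2 fold change of 1.04 (SE 0.04, limma adjusted p = 1.36e-07) that was 0.78 after rescaling. Its share of all trehalose transporter FPKM was 14.1 ± 0.19% in the male-labelled set and 7.52 ± 0.04% in the female-labelled set (SD, n = 3 each). GWHGABGR008861, whose symbol in the table is the same AGAP005563, had 37.8, 37.8 and 37.5 FPKM in the male-labelled set and 14.8, 14.6 and 15.6 FPKM in the female-labelled set. Its log2 fold change was 1.27 (SE 0.08, limma adjusted p = 5.57e-06).

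The other 4 lay at lower levels and scattered more. GWHGABGR018578, a Tret1-like gene, had the largest log2 fold change of any tested member on the log2(FPKM + 1) scale. Its level was 12.1, 13.5 and 11.7 FPKM in the male-labelled set and 2.13, 1.35 and 1.47 FPKM in the female-labelled set, from 423 male-labelled and 65 female-labelled reads, a read ratio of 7.56 and a log2 fold change of 2.35 (SE 0.17, limma adjusted p = 1.41e-05). GWHGABGR020717 had 9.70, 9.34 and 11.9 FPKM in the male-labelled set and 1.56, 3.07 and 3.71 FPKM in the female-labelled set (log2 fold change 1.62, SE 0.24, limma adjusted p = 0.00102). GWHGABGR008863 varied most within the male-labelled set, at 15.4, 22.8 and 25.3 FPKM, against 7.22, 5.78 and 11.0 FPKM in the female-labelled libraries (log2 fold change 1.31, SE 0.24, limma adjusted p = 0.00346). GWHGABGR017108 had 7.96, 7.36 and 8.98 FPKM in the male-labelled set and 4.03, 2.17 and 3.91 FPKM in the female-labelled set (log2 fold change 1.09, limma adjusted p = 0.0045). In each of these 4 genes the lowest male-labelled library lay above the highest female-labelled one.

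**Figure D2:**
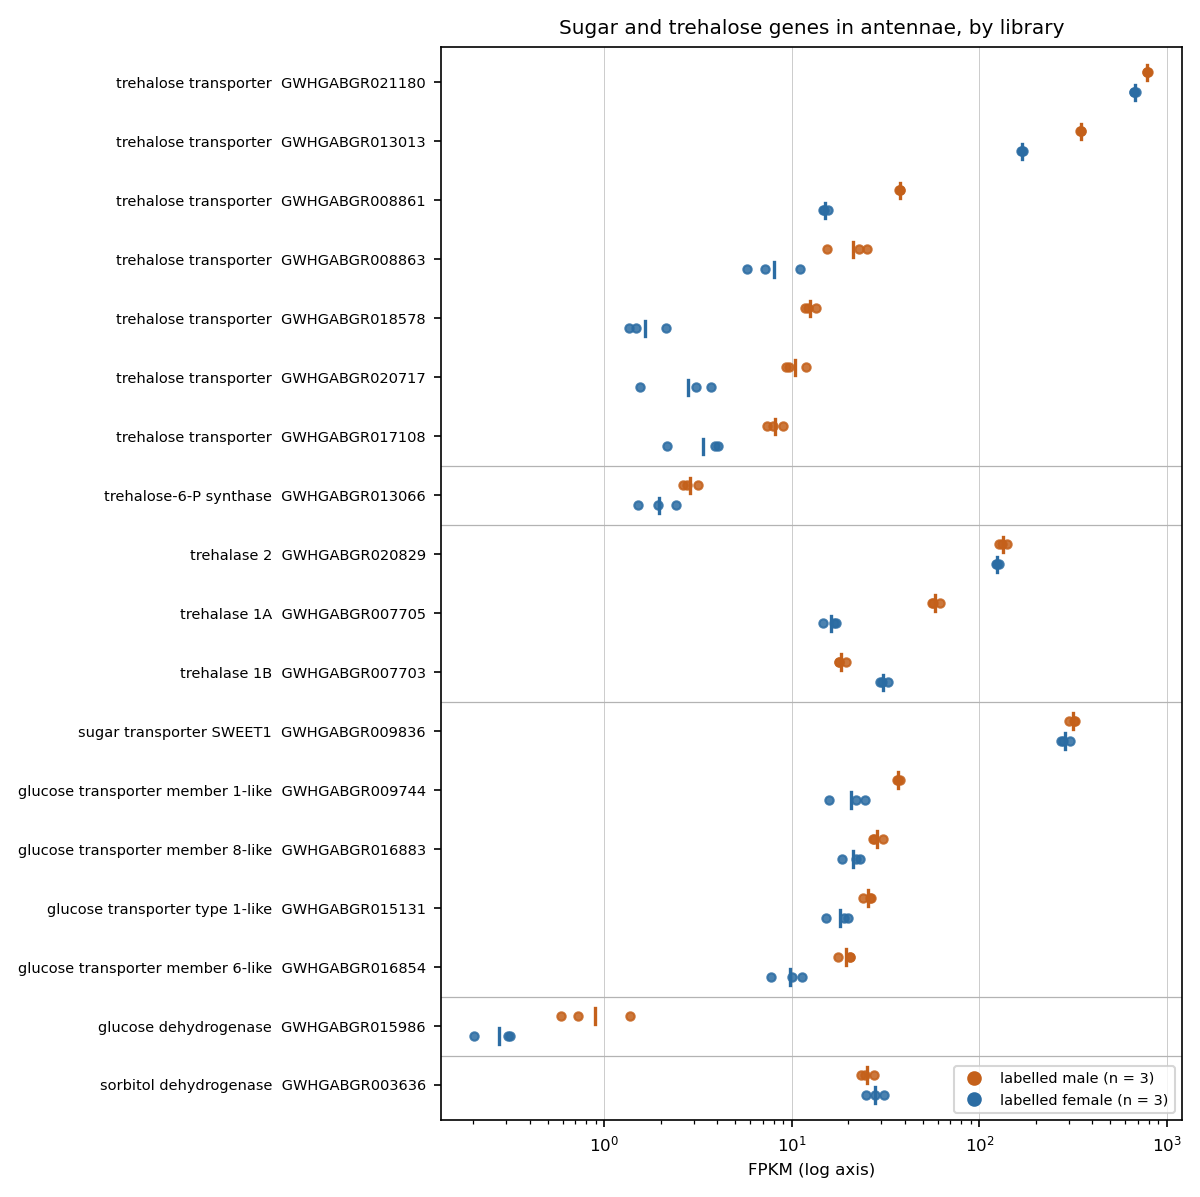
FPKM on a log axis of the members chosen by the rule given under data processing. Male-labelled libraries are above female-labelled ones, with 1 point for each library and a tick at the mean. The 2 sets of 3 do not overlap for the Tret1-like genes GWHGABGR013013 and GWHGABGR018578 and for trehalase 1A, and overlap for SWEET1 and sorbitol dehydrogenase.

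Several abundant transporters went the other way. They were chosen after their values were seen. GWHGABGR019283, named for the Tret1-2 homolog, had 219, 204 and 218 FPKM in the male-labelled set and 353, 347 and 345 FPKM in the female-labelled set. Its log2 fold change was -0.71 (SE 0.04, limma adjusted p = 3.79e-06) and -0.96 after rescaling, and its share of trehalose transporter FPKM was 8.64 ± 0.31% in the male-labelled set and 15.5 ± 0.48% in the female-labelled set (SD, n = 3 each). GWHGABGR018542 had 121, 115 and 116 FPKM in the male-labelled set and 154, 172 and 160.2 FPKM in the female-labelled set (log2 fold change -0.46). GWHGABGR020690 had 53.6, 50.3 and 56.7 FPKM in the male-labelled set and 78.9, 91.0 and 85.2 FPKM in the female-labelled set (log2 fold change -0.66). GWHGABGR013596, also named for the Tret1-2 homolog, had a log2 fold change of -0.34, and all 4 genes were lower on both scales with no overlap of libraries. GWHGABGR013013 and GWHGABGR019283, both abundant transporters, thus differed in direction, and the difference between their changes was not tested.

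Among the remaining called trehalose transporters, GWHGABGR008859 (306 ± 15.3 FPKM in the male-labelled set and 251 ± 12.0 in the female-labelled set, SD, n = 3 each) and GWHGABGR011833 (184 ± 2.01 FPKM in the male-labelled set and 144 ± 4.04 in the female-labelled set) were higher on the deposited scale, at log2 fold changes of 0.29 and 0.35, and lost the call on rescaling. GWHGABGR016844 stood at 10.3 ± 1.72 FPKM in the male-labelled set and 5.35 ± 0.367 in the female-labelled set (SD, n = 3 each) and was higher on both scales (log2 fold change 0.82, and 0.59 after rescaling). GWHGABGR016782 stood at 11.4 ± 2.06 FPKM in the male-labelled set and 6.30 ± 0.96 in the female-labelled set (SD, n = 3 each), and its log2 fold change of 0.76 lost the call under quantile normalization (limma adjusted p = 0.0868). At lower levels, GWHGABGR017044 had 15 reads in the male-labelled set and 142 in the female-labelled set, and GWHGABGR018573 had 2 male-labelled and 18 female-labelled reads, a ratio of 0.129 (exact 95% interval 0.0145 to 0.539, for counting error only). GWHGABGR016840 had 80 reads in the male-labelled set and 6 in the female-labelled set, a depth-corrected ratio of 15.5 (exact 95% interval 6.81 to 43.5), and a log2 fold change of 1.47. GWHGABGR020709 (log2 fold change -1.01, mean of 4.91 FPKM over all libraries) and GWHGABGR018574 (-1.13, 2.49 FPKM) were called lower. Both fell more than the abundant genes described before. GWHGABGR020705 (1.33, 2.79 FPKM) was called higher. GWHGABGR017315 was called lower at a limma adjusted p of 0.0492, and that call was lost on leaving out any single library (limma adjusted p from 0.0631 to 0.154). The 28 tested trehalose transporters that were not called had log2 fold changes between -0.34 and 0.90.

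**Figure D3:**
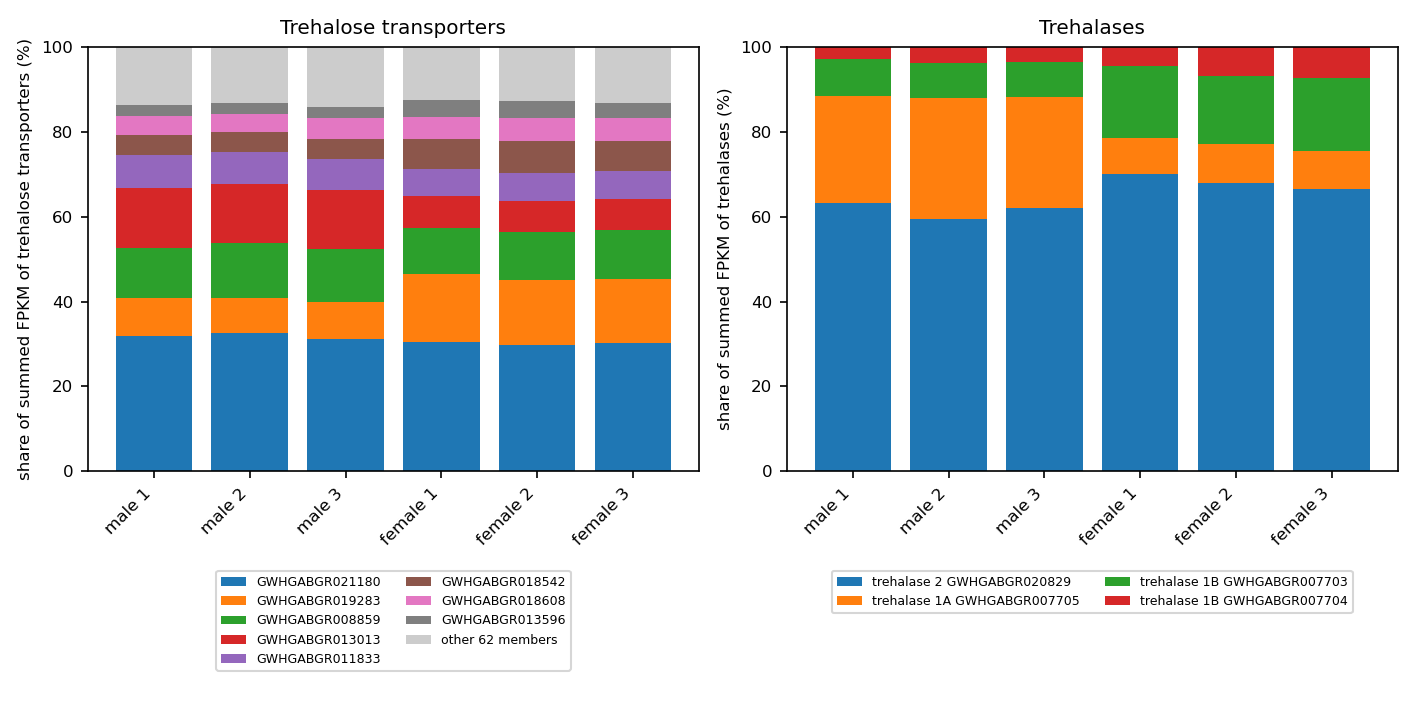
Percent of the summed FPKM of a role held by each member, for trehalose transporters and trehalases, in 6 bars with the 3 male-labelled libraries left of the 3 female-labelled ones. Trehalase 1A holds 26.7% of the trehalase FPKM on average in the male-labelled set and 8.84% in the female-labelled set.

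The trehalases were all tested and differed from each other in direction. Trehalase 1A (GWHGABGR007705) had 56.5, 61.5 and 56.2 FPKM in the male-labelled set and 14.7, 17.1 and 16.8 FPKM in the female-labelled set. The male-labelled mean of 58.1 ± 3.01 FPKM stood above the female-labelled mean of 16.2 ± 1.34 (SD, n = 3 each), a log2 fold change of 1.78 (SE 0.09, limma adjusted p = 1.20e-06) and 1.53 after rescaling. Trehalase 1B (GWHGABGR007703) had 19.4, 17.7 and 17.8 FPKM in the male-labelled set and 29.7, 30.1 and 32.4 FPKM in the female-labelled set, again without overlap. It fell by 0.72 on the log2 scale (SE 0.09, limma adjusted p = 0.000316) and by 0.97 after rescaling. Within a library the ratio of 1A to 1B does not depend on how libraries are scaled. It was 2.91, 3.47 and 3.16 in the male-labelled set and had a mean of 0.527 ± 0.0382 (SD, n = 3) in the female-labelled set. The ratio of 1A to trehalase 2 was 0.435 ± 0.041 in the male-labelled set and 0.13 ± 0.00879 in the female-labelled set (SD, n = 3 each).

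Trehalase 2 (GWHGABGR020829), the most abundant trehalase, had 141, 128 and 133 FPKM in the male-labelled set and 122, 127 and 124 FPKM in the female-labelled set. The sets lay close together without overlap, and its log2 fold change of 0.10 (SE 0.05, limma adjusted p = 0.157) became -0.15 after rescaling (limma adjusted p = 0.0469). A second gene whose best hit is trehalase 1B, GWHGABGR007704, had 6.15, 8.25 and 7.33 FPKM in the male-labelled set and 7.93, 12.8 and 13.5 FPKM in the female-labelled set. Its log2 fold change was -0.57 (limma adjusted p = 0.0616), and it was lower after rescaling (-0.80, limma adjusted p = 0.0188) and on the deposited scale without female-labelled library 1 (limma adjusted p = 0.0101). Its recovered length was 606 bases, against 1203 for GWHGABGR007703, and reads of near-identical copies could have been split between the 2. Summed over the 4 genes, trehalases reached 214 to 223 FPKM in the male-labelled set and 175 to 187 FPKM in the female-labelled set. After rescaling these sums overlapped, at 193 to 200.3 in the male-labelled set and 189 to 204 in the female-labelled set.

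Trehalose-6-phosphate synthase (GWHGABGR013066), the enzyme that makes trehalose, was low. It had 2.75, 2.64 and 3.14 FPKM in the male-labelled set and 1.52, 2.40 and 1.94 FPKM in the female-labelled set. The sets did not overlap, but the difference was not called, with a log2 fold change of 0.39 (SE 0.19, limma adjusted p = 0.15) and 0.21 after rescaling.

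Of the 17 sugar and glucose transporters, 9 were tested, 5 were higher (55.6%) and 0 lower in the male-labelled set, beside 27.8% of all genes higher, and 3 were higher (33.3%) and 0 lower after rescaling, beside 14.3%. The most abundant was SWEET1 (GWHGABGR009836), a transporter that moves sugars across membranes along their gradient, with 321, 325 and 301 FPKM in the male-labelled set and 304, 274 and 280 FPKM in the female-labelled set. The sets overlapped, and the log2 fold change was 0.14 (SE 0.05, limma adjusted p = 0.0616). After rescaling it was -0.12 (limma adjusted p = 0.136), and it was called higher without male-labelled library 3 (limma adjusted p = 0.0482) and without female-labelled library 1 (limma adjusted p = 0.0279). Several genes named for glucose transporters were called. GWHGABGR009744, a facilitated glucose transporter of the member 1 type, had 37.6, 36.9 and 36.6 FPKM in the male-labelled set and 15.7, 22.0 and 24.5 FPKM in the female-labelled set (log2 fold change 0.83, SE 0.15, limma adjusted p = 0.00274). Its spread lay in the female-labelled set. GWHGABGR016854, of the member 6 type, had 20.5, 17.6 and 20.5 FPKM in the male-labelled set and 7.77, 11.3 and 10.1 FPKM in the female-labelled set (log2 fold change 0.95, limma adjusted p = 0.00134).

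A second gene of the type 1 family, GWHGABGR015131, had 23.9, 26.0 and 26.4 FPKM in the male-labelled set and 15.2, 18.9 and 19.9 FPKM in the female-labelled set. Its log2 fold change of 0.48 (limma adjusted p = 0.0124) became 0.24 after rescaling and was then not called. GWHGABGR016883, of the member 8 type, had a log2 fold change of 0.40 (limma adjusted p = 0.019), which was lost on rescaling (0.15), without male-labelled library 2 (limma adjusted p = 0.0618) and without female-labelled library 3 (limma adjusted p = 0.0538). A gene of the type 1 family at a lower level, GWHGABGR000733, had 3.62 ± 0.587 FPKM in the male-labelled set and 1.12 ± 0.358 FPKM in the female-labelled set (SD, n = 3 each) and was called on both scales (log2 fold change 1.13 and 0.96 after rescaling). The UDP-sugar transporter UST74c (GWHGABGR000853), which carries nucleotide sugars into the Golgi in Drosophila, was not called (log2 fold change -0.14, 23 reads in the male-labelled set and 35 in the female-labelled set).

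The dehydrogenases were few. Both tested glucose dehydrogenases share the symbol CG1152, the Drosophila gene Gld, whose product oxidises glucose. GWHGABGR015986 had 0.722, 0.588 and 1.38 FPKM in the male-labelled set and 0.307, 0.202 and 0.312 FPKM in the female-labelled set, from 45 male-labelled and 16 female-labelled reads (log2 fold change 0.55, limma adjusted p = 0.0925). GWHGABGR015988 had 99 reads in the male-labelled set and 26 in the female-labelled set, and its call (log2 fold change 0.67, limma adjusted p = 0.0397) was lost on leaving out any single library, since it fell under the 0.5 FPKM minimum without male-labelled library 1 and missed the threshold without each of the others, and after rescaling (0.58, limma adjusted p = 0.0709). The sorbitol dehydrogenase with reads enough to test, GWHGABGR003636, belongs to enzymes that turn sorbitol to fructose, and its best hit is an A. pernyi protein. It had 27.6, 24.7 and 23.4 FPKM in the male-labelled set and 31.1, 25.0 and 27.7 FPKM in the female-labelled set, which overlapped, and its log2 fold change was -0.14 (limma adjusted p = 0.345) on the deposited scale and -0.39 after rescaling (limma adjusted p = 0.0235).

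The remaining 31 members were not tested because their mean was under 0.5 FPKM, the highest of them at 0.436 and the lowest tested member at 0.538. They carried 1 to 37 reads in all, 20 of them in libraries of 1 label only, and they comprise 20 trehalose transporters, 8 sugar and glucose transporters, 1 glucose dehydrogenase and 2 sorbitol dehydrogenases. Across all 98 members, 8 had no reads in any male-labelled library and 12 had none in any female-labelled library. No share of all genes stands beside these counts, and the 31 untested members had a median of 2 reads. The counts are thus no result about the members. The symbol Tret1 stood on 26 members, a family name shared by copies that may share reads. Members with a mean between 0.5 and 5 FPKM numbered 36, of which 4 were higher and 5 lower. That was 25.0% called, where 20.5% of all genes in that range were called. Among 20 members from 5 to 50 FPKM 12 were higher and 1 lower (65.0%, against 42.7% of all genes called). Among 11 at 50 FPKM or more 4 were higher and 4 lower (72.7%, against 61.5% of all genes called). After rescaling, 3 were higher and 5 lower from 0.5 to 5 FPKM (22.2%, against 14.0% of all genes in that range called on that scale). From 5 to 50 FPKM 10 were higher and 4 lower (70.0%, against 33.8%), and at 50 FPKM or more 1 and 6 (63.6%, against 69.5%). The all-gene shares cover both directions together, so the split of members by direction has no share to be read against.

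Members with neighbouring identifiers moved alike in some runs and apart in others. There were 11 runs of at least 3 members in which each identifier lay within 10 of the next, holding 59 of the 98, and 3 runs held calls in both directions. The trehalase genes from GWHGABGR007703 to GWHGABGR007705 held 1 higher and 1 lower call. The run from GWHGABGR018569 to GWHGABGR018578 had 4 tested members with log2 fold changes between -1.41 and 2.35, and the run from GWHGABGR020689 to GWHGABGR020722 had 9 tested members between -1.01 and 1.62, with 2 called each way. All 3 members of the run from GWHGABGR008859 to GWHGABGR008863 were higher on the deposited scale, and 2 of them after rescaling. Whether identifier order follows the genome is not stated in the sources used here, and no coordinates are used.

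**Figure D4:**
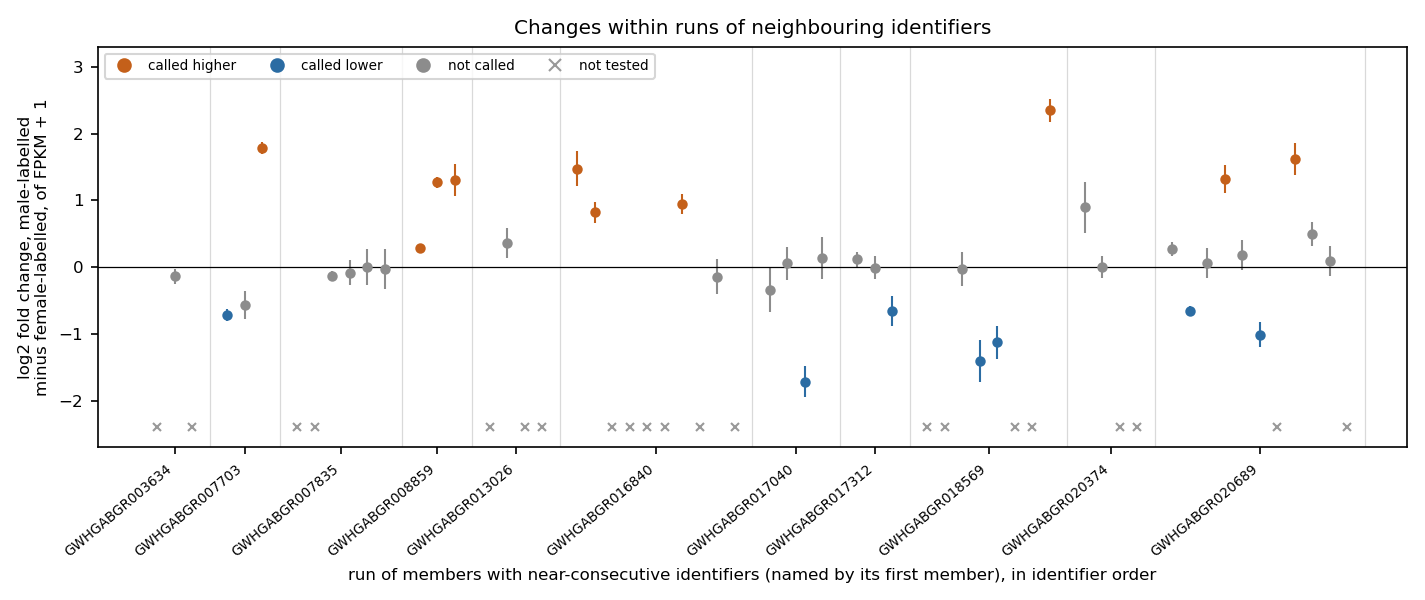
Log2 fold change, male-labelled minus female-labelled, of FPKM + 1 for tested members in each run of neighbouring identifiers, with colours for calls on the deposited scale. In 3 runs, including the trehalases, points called higher and points called lower stand together.

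Other genes of sugar cleavage, sugar use and insulin-type hormones and their receptors were taken from 6 lists of name patterns, with 37 genes matched, 29 tested, 9 higher (31.0%) and 2 lower (6.90%) in the male-labelled set, and 4 higher (13.8%) and 5 lower (17.2%) after rescaling, beside the shares of all genes given above. The patterns also caught a glycogen synthase kinase and an mRNA-binding protein named for insulin-like growth factor 2, and without both 8 of 27 were higher and 2 lower (4 and 4 after rescaling). Hexokinase 1 (GWHGABGR020752), which phosphorylates glucose on entry, had 78.1, 81.5 and 78.9 FPKM in the male-labelled set and 45.3, 49.3 and 44.0 FPKM in the female-labelled set. The sets did not overlap (log2 fold change 0.77, SE 0.07, limma adjusted p = 3.80e-05, and 0.52 after rescaling). Hexokinase 2 (GWHGABGR002843) had a log2 fold change of 0.32 (limma adjusted p = 0.0202), lost on rescaling (0.07), without male-labelled library 3 (limma adjusted p = 0.0669) and without female-labelled library 1 (limma adjusted p = 0.0519). The largest decrease was that of a maltase 1-like gene (GWHGABGR006593), an enzyme that splits maltose and related sugars, with 352, 350 and 352 FPKM in the male-labelled set and 938, 930.1 and 935 FPKM in the female-labelled set (log2 fold change -1.41, SE 0.03, limma adjusted p = 4.77e-09).

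**Figure D5:**
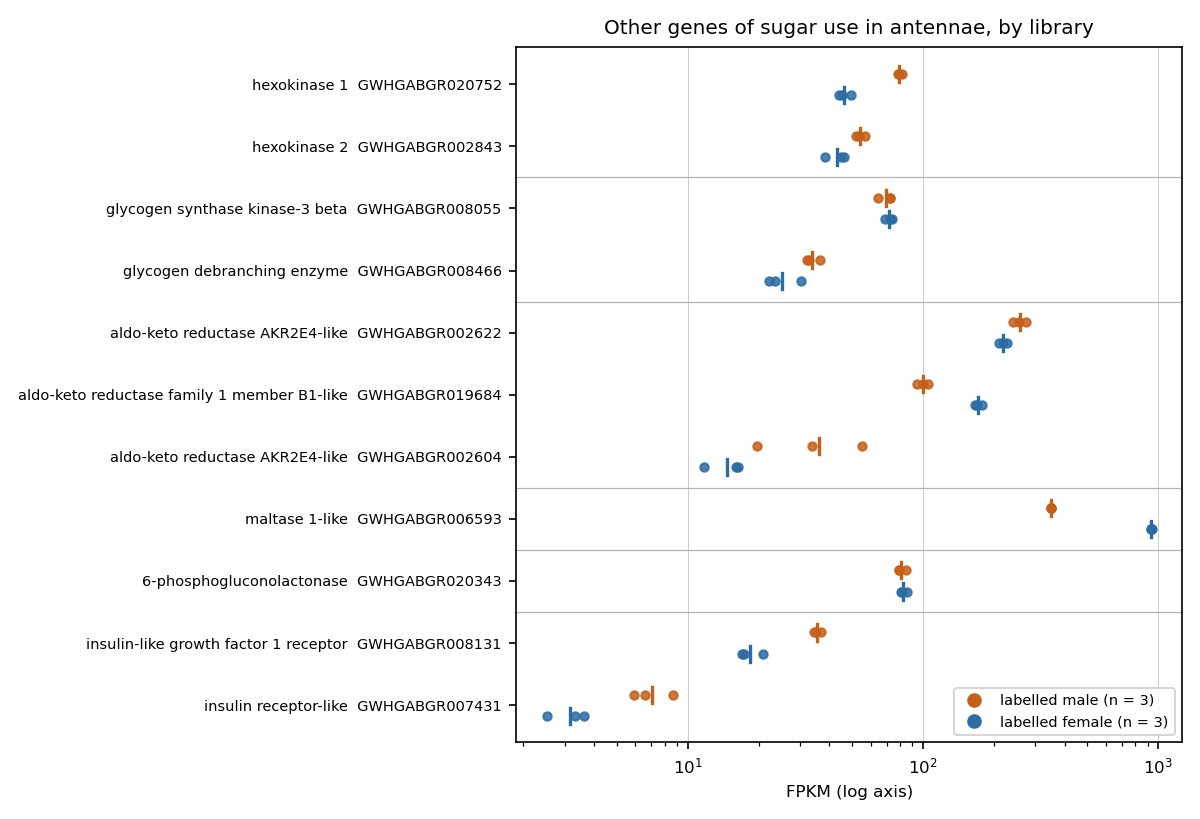
FPKM on a log axis of genes from the lists for sugar use, with male-labelled libraries above female-labelled ones and 1 point for each library. The maltase 1-like gene stands at 351 ± 0.975 FPKM in the male-labelled set and 934 ± 4.01 FPKM in the female-labelled set (SD, n = 3 each).

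In the polyol list, an aldo-keto reductase of the B1 type (GWHGABGR019684), the family of aldose reductases that turn glucose to sorbitol, had 105, 94.5 and 99.6 FPKM in the male-labelled set and 167, 169 and 178 FPKM in the female-labelled set (log2 fold change -0.77, limma adjusted p = 1.31e-05). An AKR2E4-like gene (GWHGABGR002604) had 55.1, 19.8 and 33.9 FPKM in the male-labelled set and 14.7 ± 2.61 FPKM (SD, n = 3) in the female-labelled set, and its call (log2 fold change 1.14, limma adjusted p = 0.0215) was lost on rescaling (0.90, limma adjusted p = 0.0542), without male-labelled library 3 (limma adjusted p = 0.0562) and without female-labelled library 3 (limma adjusted p = 0.0755). Another AKR2E4-like gene, GWHGABGR015825, chosen after its values were seen, had 21.2 ± 2.45 FPKM in the male-labelled set and 12.1 ± 0.626 in the female-labelled set (SD, n = 3 each) and was called higher on the deposited scale (log2 fold change 0.75, limma adjusted p = 0.00125) and after rescaling (0.51, limma adjusted p = 0.00998). The most abundant of that list, the AKR2E4-like GWHGABGR002622, changed by 0.23 on the deposited scale and by -0.024 after rescaling. Its call was lost on rescaling, under quantile normalization (limma adjusted p = 0.115), without the mean-variance trend and without female-labelled library 3 (limma adjusted p = 0.0505). All 3 higher calls of the polyol list were AKR2E4-like genes, and they count among the 9 higher genes of all lists. The list took any aldo-keto reductase, and the name AKR2E4 does not show which substrate the enzyme uses. Among receptors of sugar-related hormones, the insulin receptor-like gene (GWHGABGR007431) had 8.68, 6.56 and 5.89 FPKM in the male-labelled set and 3.16 ± 0.583 FPKM (SD, n = 3) in the female-labelled set (log2 fold change 0.95, limma adjusted p = 0.00599). The insulin-like growth factor 1 receptor (GWHGABGR008131) had 36.7, 35.1 and 34.5 FPKM in the male-labelled set and a mean of 18.4 ± 2.15 FPKM (SD, n = 3) in the female-labelled set (log2 fold change 0.91, limma adjusted p = 0.000172), and both kept the call after rescaling. The list patterns also caught glycogen synthase kinase-3 beta and an insulin-like growth factor 2 mRNA-binding protein, which are not enzymes or hormones of sugar use. Glycogen and pentose phosphate genes gave 1 call in 6 tested, a glycogen debranching enzyme (GWHGABGR008466, log2 fold change 0.42) that lost its call on rescaling (0.17) and without any single library other than female-labelled library 1 (limma adjusted p from 0.0525 to 0.093). After rescaling 3 of the 6 were lower, glycogen phosphorylase (GWHGABGR012875, log2 fold change -0.38, limma adjusted p = 0.00403), 6-phosphogluconolactonase (GWHGABGR020343, -0.28, limma adjusted p = 0.00715) and glycogen synthase kinase-3 beta (GWHGABGR008055, -0.30, limma adjusted p = 0.0122). Without the kinase, 1 of 3 glycogen genes and 1 of 2 pentose phosphate genes were lower after rescaling, where 17.7% of all genes were lower.

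Markers of other tissues that antennal RNA can hold were measured alongside, to be read beside the 27.8% higher and 9.03% lower of all genes (14.3% and 17.7% after rescaling). Hemocyte markers had 9 of 12 tested genes higher and 0 lower in the male-labelled set (6 and 0 after rescaling), with sums between 299.5 and 330.2 FPKM there and between 225 and 232 FPKM in the female-labelled libraries. After rescaling the hemocyte sums were 270 to 297 in the male-labelled set and 242 to 250.4 in the female-labelled set. Of the 9 higher, 5 were integrin beta genes, which many cell types express, and without the integrins 4 of 6 were higher and 0 lower (3 and 0 after rescaling). The sums without integrins were 179 to 202 FPKM in the male-labelled set and 160 to 165 in the female-labelled set. After rescaling these sums overlapped, at 161 to 185 in the male-labelled set and 172 to 180 in the female-labelled set. Most of the trimmed sums came from prophenoloxidase-activating proteinases, which the pattern also caught and which are not prophenoloxidases. GWHGABGR020628 had means of 127 FPKM in the male-labelled set and 118 in the female-labelled set and was not called. GWHGABGR020626 had 36.3 and 27.1 and was among the higher calls. The 1 prophenoloxidase that reached the test, GWHGABGR016003, was not called, with means of 1.59 FPKM in the male-labelled set and 1.73 FPKM in the female-labelled set. The list for fat body and hemolymph, many of whose matches were microvitellogenin genes, had 39 tested genes, of which 19 were higher and 2 lower (13 and 2 after rescaling). Its most abundant gene, apolipophorin-III (GWHGABGR013340), was called lower, with means of 410 FPKM in the male-labelled set and 543 in the female-labelled set. The list summed to 1737 to 1820 FPKM in the male-labelled set and 1547 to 1584 FPKM in the female-labelled set, and after rescaling to 1587 to 1636 in the male-labelled set and 1688 to 1705 in the female-labelled set. Its pattern also caught 3 names of other genes, a pyruvate dehydrogenase kinase, a vitellogenin receptor and a fibrohexamerin-like gene. Without them 18 of 37 were higher and 2 lower (12 and 2 after rescaling).

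The muscle list had 7 of 23 tested genes higher and 2 lower (2 and 3 after rescaling), but it caught 5 myosin heavy chains that are not muscle genes, 4 of them named non-muscle and the other named 95F. Without those 5, which were taken out after their names and calls had been seen, 3 of 18 were higher and 2 lower (1 and 3 after rescaling). The sums were then 284 to 288 FPKM in the male-labelled set and 260.3 to 272 FPKM in the female-labelled set, and after rescaling 256 to 259.9 in the male-labelled set and 280 to 296 in the female-labelled set. Gut markers had 5 of 11 tested genes higher and 0 lower (1 and 2 after rescaling), with sums of 526 to 573 FPKM in the male-labelled set and 505 to 513 FPKM in the female-labelled set, or 474 to 524 in the male-labelled set and 546 to 560 in the female-labelled set after rescaling. That list caught a probable aminopeptidase NPEPL1 and a digestive organ expansion factor homolog, which are not gut markers, and without them 4 of 9 were higher and 0 lower (1 and 2 after rescaling). All 4 higher on the deposited scale were aminopeptidase N genes. No alkaline trypsin was called. The most abundant gene of the list, digestive cysteine proteinase 1 (GWHGABGR018147), had means of 210 FPKM in the male-labelled set and 219 in the female-labelled set and was not called. The hemocyte, fat body and hemolymph, gut, antennal and sugar-use lists were likewise trimmed after their names and calls had been seen. As matched, 1 hemocyte, 9 fat body and hemolymph and 3 muscle genes had no reads in any female-labelled library, and 1 gut gene had none in any male-labelled library. Each of these genes had a mean under 0.5 FPKM and was not tested, so a few reads decide such zeros. The share of all genes without reads in a label is not given here. The part of these other tissues in the changes of trehalase 1A, trehalose transporters and glucose transporters was not tested.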

How the data were processed

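Antennal mRNA was sequenced in 6 libraries, 3 labelled male and 3 labelled female. The authors deposited FPKM per gene, with best protein hits, gene symbols and pathway names. The submitters' processing notes name Trimmomatic, HISAT2, HTSeq and R 3.2.0 without roles, and the genome build is not given in the sources used here. FPKM steps gave whole reads within 0.01 read for 16458 of 16458 genes (shortest length of at least 90 bases). Those reads gave the library totals, read counts, read ratios and counting intervals and entered no test. Each length is the shortest that gave whole reads, so a read count is the smallest that the values allow. A length divisible by 3 was found for 58 of the 69 members with more than 30 reads, and for 69 of all 98 members. The test was that of limma 3.58.1 (R 4.3.3), fitted to log2(FPKM + 1) under its mean-variance trend, for 11590 genes with a mean of at least 0.5 FPKM, 2-sided, with Benjamini-Hochberg adjustment over all of them at 0.05. Label was the only term. In the male-labelled over female-labelled fit 4274 genes (36.9%) were called. The step was tested on simulated data. Values by library are given in the text or the figures for genes chosen by a rule. Per role, the rule took the most abundant member and up to 6 largest called changes without overlap that reached 5 FPKM. Per list of sugar use, it took the 2 largest called changes and the most abundant gene. Other genes named were chosen after their values were seen. The members and lists were chosen with earlier results of these data known. Same-numbered libraries had deviation correlations of 0.00513, 0.00589 and -0.00375, so numbers were not taken as pairs. Intervals cover counting error only.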

Additional observations from a re-analysis of the deposited data

How the results depend on the processing

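Of 29 genes chosen by the rule given above, 16 kept direction and call under every alternative run. The runs were pseudocount 0.1, no filter, filter at 2 FPKM, median-of-ratios rescaling, quantile normalization, replicate block, no mean-variance trend, and each library left out. Median-of-ratios rescaling called 1652 genes higher and 2040 lower, and quantile normalization 1636 and 1688. For genes of sugar use, rescaling called 4 higher and 5 lower and quantile normalization 4 and 4, while no trend called 7 in all and 5 higher. Leaving out 1 library gave 3460 to 3693 genes in all, 2566 to 2739 higher and 877 to 954 lower, members 27 to 30 in all, 18 to 21 higher and 9 to 10 lower, and genes of sugar use 7 to 10 in all, 5 to 8 higher and 2 lower each time. The replicate block gave 3845 genes in all and 29 members (19 higher, 10 lower), and the correlations of deviations did not show pairs. It ended the calls of the glycogen debranching enzyme GWHGABGR008466, GWHGABGR015988 and GWHGABGR017315. Directions turned on rescaling for SWEET1 (GWHGABGR009836, -0.12), trehalase 2 (GWHGABGR020829, -0.15), the Tret1-like GWHGABGR021180 (-0.038) and GWHGABGR002622 (-0.024), whose deposited changes lay between 0.10 and 0.23 beside a median of 0.23 over all genes. Leaving out 1 library moved glycogen synthase kinase-3 beta (GWHGABGR008055) between -0.071 and 0.014, with the highest value without male-labelled library 1. The causes were not tested. Members without the nucleotide-sugar carrier gave the same 30 calls. Called members had a median of 730.5 reads and uncalled ones 151, and the part of depth in the calls was not tested.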
